A study of Rattus norvegicus with 19 samples.

Results

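Cyclic AMP signalling genes were described in single T11 dorsal root ganglia of rats, the sensory ganglia of the eleventh thoracic segment. Members were all genes whose symbol in the array's annotation belongs to the adenylyl cyclases (Adcy), the phosphodiesterases (Pde), the subunits of protein kinase A (Prkac and Prkar), the numbered A-kinase anchoring proteins (Akap) or the CREB and CREM transcription factors. The rule found 61 of 14217 genes, measured by 102 of 31042 probe sets. They comprise 8 Adcy, 24 Pde, 6 Prka, 15 Akap and 8 Creb and Crem genes. Each gene is given by its brightest probe set, and the remaining 41 probe sets of the same genes serve as a check. A level is the deposited log2 signal of a probe set, so a difference of 1 is a doubling.

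All rats were adult female Sprague-Dawley animals, and each gave 1 ganglion and 1 Affymetrix rat expression array. The 5 naive rats were unoperated controls. In the 7 rats of day 7 and the 7 rats of day 14, the dorsal and lateral cutaneous nerves were cut unilaterally in the segments on either side, which were T9 and T10 above and T12 and T13 below. In the study's design the T11 nerves are left uncut and sprout into the skin around them that has lost its innervation. Day 7 was taken by the study as a time when sprouting starts, and day 14 as a time when it is maintained. Because the naive rats had no operation, effects of surgery as such, of denervated neighbouring skin and of any injury to T11 axons cannot be told apart.

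Adenylyl cyclases make cyclic AMP when G proteins coupled to receptors activate them, and phosphodiesterases degrade it. Cyclic AMP releases the catalytic subunits of protein kinase A from its regulatory subunits, anchoring proteins hold the kinase at particular sites in the cell, and CREB, phosphorylated by the kinase, switches on genes with a cyclic AMP response element. In sensory neurons the pathway is known for sensitising nociceptors and for raising the capacity of axons to grow, and phosphodiesterase inhibitors are used experimentally to prolong its signal.

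The response element is shown first because it is the DNA sequence on which the CREB and CREM members act. RefSeq promoter windows of 300 bases, 250 before and 50 after an annotated start (rat build GRCr8), were matched to 49 of the 61 genes, with 64 windows. The other 12 genes, Pde7b and Pde7a among them, had no window and were not searched. The palindrome TGACGTCA was found in 3 of the 64 windows (4.69%) and in 1.83% of all 33469 windows. The shorter element TGACG, searched on both strands and contained in the palindrome, was found in 19 of the 64 (29.7%), belonging to 15 genes, and in 21.2% of all windows. The 3 stretches with the palindrome, in capitals, belong to Akap17a, a splicing regulator that anchors protein kinase A, and to 2 alternative starts of Crem, which encodes activators and repressors that bind this element.
Akap17a, minus strand, chr12:21428402-21428497: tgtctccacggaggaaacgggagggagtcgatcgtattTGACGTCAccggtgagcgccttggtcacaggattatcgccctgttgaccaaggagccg
Crem, first start, plus strand, chr17:58984691-58984796: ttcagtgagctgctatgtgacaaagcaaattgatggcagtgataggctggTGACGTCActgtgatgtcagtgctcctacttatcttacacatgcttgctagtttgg
Crem, next start, plus strand, chr17:58985405-58985489: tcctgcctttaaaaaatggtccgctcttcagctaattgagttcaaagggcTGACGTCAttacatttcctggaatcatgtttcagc
The element lies 212 to 205 bases before the start in Akap17a, 56 to 49 bases before it in the first Crem window and 35 to 28 bases before it in the next. This last window holds the palindrome a second time, beginning 39 bases after the start, which is not printed. A match is a description of the letters, not of binding. The levels of Crem and Akap17a, which did not pass the test in any comparison, are given below.

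The arrays correlated with each other between 0.987 and 0.997 over all probe sets. The mean of 12 sensory neuron markers lay between 12.20 and 12.50 on all 19 arrays, and each of those markers averaged at least 8.59 in naive rats, so the labelled tissue was borne out. The mean of 12 genes known from injured sensory neurons ranged from 7.15 to 7.44 in naive rats, from 7.40 to 9.68 at day 7 and from 7.49 to 9.99 at day 14. Replicate 3 of day 14 was highest for these genes and for 10 macrophage markers (9.0), and lowest for the sensory neuron markers. Whether T11 axons were injured in the operated rats was not tested. A list of 13 skeletal muscle markers was high on 1 array of each group, at 9.60 in naive replicate 1, 9.27 in day 7 replicate 7 and 8.03 in day 14 replicate 2. In a whole ganglion, fewer cells of a type and less RNA per cell cannot be told apart.

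Among the 61 genes only Pde7b passed the test, at day 14. At day 7 against naive, 0 of 61 passed an adjusted p of 0.05 in limma's moderated test, as did 0% of the 31042 probe sets. At an unadjusted p under 0.05 there were 5, or 8.20%, against 8.70% of all probe sets and 9.95% when every gene is given by its brightest probe set. At day 14 against naive 1 gene passed, which is 1.64% of the members against 0.139% of all probe sets, or 0.0258% for higher ones alone. Since the rise of Pde7b was known when the genes were chosen, that share is a description and not an excess. In that comparison 10 genes, or 16.4%, lay under an unadjusted p of 0.05, against 19.7% of all probe sets and 19.4% of brightest ones. At day 14 against day 7, 0 passed, as did 0% of all probe sets, and 6, or 9.84%, lay under an unadjusted p of 0.05 against 11.3% and 10.5%. The members' shares at an unadjusted p lay near or below the background in each comparison. The difference lay above zero for 50.8% of the members at day 7, 57.4% at day 14 and 57.4% between both days, and for 48.7%, 50.7% and 51.9% of the brightest probe sets of all genes. Their median log2 difference was 0.0032 at day 7, 0.018 at day 14 and 0.015 between both days, where the brightest probe sets of all genes had -0.0034, 0.0025 and 0.0041. The comparisons share groups and are therefore not independent of each other.

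**Figure D1:**
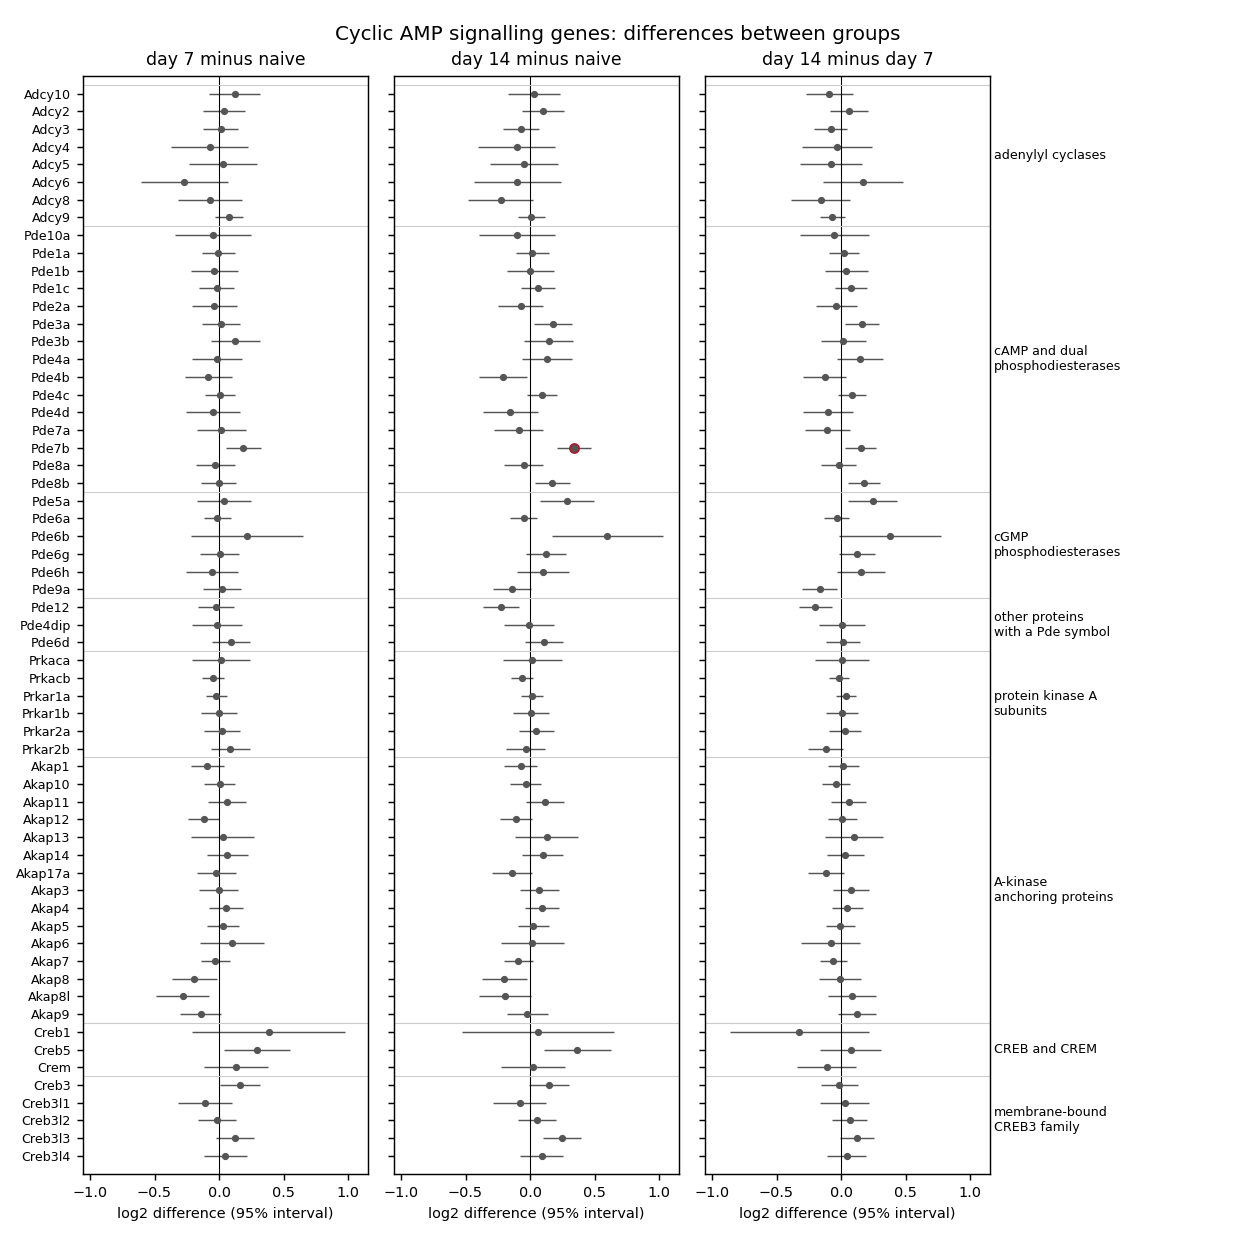
Log2 difference between groups (x axis) for each of the 61 genes (y axis, grouped by role), with 95% intervals from limma, for day 7 minus naive, day 14 minus naive and day 14 minus day 7. The red point marks Pde7b at day 14, which alone passed an adjusted p of 0.05.

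Pde7b encodes a phosphodiesterase that degrades cyclic AMP with high affinity and is insensitive to rolipram. Its level in the 5 naive rats was 5.75, 5.59, 5.64, 5.73 and 5.72. At day 7 it was 5.84, 5.65, 5.89, 5.84, 6.01, 5.97 and 5.91, and at day 14 it was 5.91, 5.96, 5.93, 6.03, 6.15, 6.20 and 5.99. All 7 rats of day 14 and 6 of 7 rats of day 7 lay above the highest naive rat, and the ranges of day 7 and day 14 overlapped.

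Pde7b rose at day 14 by 0.34 ± 0.06 (SE) log2 units, a factor of 1.26, with a limma adjusted p of 0.0365 and a 95% interval from 0.21 to 0.47. At day 7 it averaged 0.19 ± 0.06 (SE) above naive, which did not pass (limma adjusted p = 0.455), and day 14 lay 0.15 ± 0.06 (SE) above day 7 (limma adjusted p = 0.369). This rise was known from an earlier analysis of the same arrays when the genes were chosen, so it is a description here. The adjusted p stayed under 0.05 in 16 of 33 alternative analyses, over which the difference ranged from 0.27 to 0.38 and the adjusted p from 0.0273 to 0.744. Without 1 array the call was lost for naive replicates 2, 3 and 5, day 7 replicate 3 and day 14 replicates 2, 4, 5, 6 and 7, with differences of 0.31 to 0.36 over all 19 omissions.

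The animal codes in the labels begin with AI, AJ or AK, which the labels do not explain, and all 5 AI arrays belong to day 14. Among AJ arrays Pde7b averaged 5.69 in 2 naive rats, 5.90 in 5 rats of day 7 and 5.98 in 2 rats of day 14, so the day 14 difference was 0.29 there. Among AK arrays it averaged 5.68 in 3 naive rats and 5.81 in 2 rats of day 7. The 5 AI arrays of day 14 averaged 6.04. With the letters as a block the Pde7b difference was 0.27 ± 0.10 (SE) and the limma adjusted p was 0.744. Since all AI arrays belong to day 14, that fit takes the day 14 difference of every gene from the 2 AJ rats of day 14. Its SE and adjusted p thus reflect fewer rats, and an effect of the letters cannot be told apart from that.

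Pde7b is measured by 1 probe set whose mean of 5.88 lies below the array's median level of 6.72, in the second dimmest of 4 bins of equal size by signal. In that bin 66.3% of all probe sets lay above naive at day 14, with a median difference of 0.06, and 16.8% were higher and 6.86% lower at an unadjusted p under 0.05. In the next brighter bin the median was -0.04 and 39.8% lay above naive. Of the 12 members in the bin of Pde7b 10 lay above naive at day 14, and 4 of them had an unadjusted p under 0.05. The part of this shift of dim signals in the Pde7b difference was not tested.

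**Figure D2:**
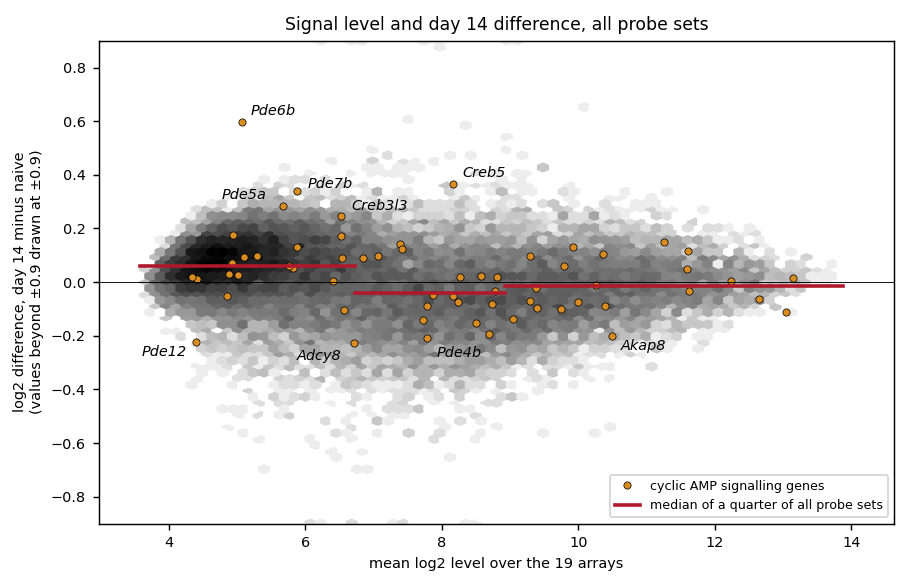
Log2 difference between day 14 and naive (y axis) against mean log2 level over the 19 arrays (x axis). Grey hexagons are all 31042 probe sets, darker where more lie, orange points are the 61 genes and red lines are the median difference in each of 4 bins by signal, which is above zero in the 2 dimmer bins.

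The closest relative, Pde7a, which likewise degrades cyclic AMP alone, was measured at 7.86, 7.79, 7.86, 7.57 and 7.98 in naive rats. At day 7 its lowest, median and highest levels were 7.56, 7.83 and 8.25, and at day 14 they were 7.56, 7.77 and 7.85. All 3 groups overlapped. Its difference at day 14 was -0.09 ± 0.09 (SE), with a 95% interval from -0.28 to 0.10 that lies below the interval of Pde7b, and at day 7 it was 0.02. The difference between both genes was not tested, since Pde7b was set beside its family with its own result known.

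Of the 15 phosphodiesterases that degrade cyclic AMP alone or both cyclic nucleotides, 9 lay above and 6 below naive at day 14, between -0.21 and 0.34, with a median of 0.02. At day 7 they lay between -0.08 and 0.19. Besides Pde7b, 3 of them had an unadjusted p under 0.05 at day 14, and none of these passed after adjustment. Of the brightest probe sets of all genes 19.4% had such a p at day 14.

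Pde8b, a high-affinity cyclic AMP phosphodiesterase insensitive to common inhibitors, ranged from 6.30 to 6.55 in naive rats, with 6.55, 6.49, 6.30, 6.53 and 6.45. The lowest, median and highest levels were 6.29, 6.44 and 6.58 at day 7 and 6.53, 6.58 and 6.82 at day 14. The day 14 group lay highest, with 4 of 7 rats above every naive rat, and the ranges of all 3 groups overlapped. Its difference was 0.17 ± 0.07 (SE) from naive and 0.18 ± 0.06 (SE) from day 7, with limma adjusted p-values of 0.171 and 0.346. Among AJ arrays the day 14 difference from naive was 0.26, with 6.82 in replicate 3 and 6.54 in replicate 4 of day 14.

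Pde3a, inhibited by cyclic GMP, was dim at 5.0, 4.83, 4.99, 4.92 and 4.64 in naive rats. It ranged from 4.67 to 5.01 at day 7 and from 4.95 to 5.26 at day 14, where 5 of 7 rats lay above the naive range. The day 14 difference was 0.18 ± 0.07 (SE, limma adjusted p = 0.189). Among AJ arrays 2 rats of day 14 averaged 5.01 and 2 naive rats 4.99, a difference of 0.014. Its relative Pde3b, which acts in insulin signalling, lay 0.13 above naive at day 7 and 0.14 at day 14, with 3 of 7 rats of day 14 above the naive range.

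The 4 genes of the Pde4 family encode the cyclic AMP-specific enzymes that rolipram inhibits. Pde4b was at 8.02, 8.01, 7.83, 7.98 and 7.64 in naive rats and had a lowest, median and highest level of 7.40, 7.75 and 7.91 at day 14. The groups overlapped widely, and the difference was -0.21 ± 0.09 (SE, limma adjusted p = 0.201), and -0.27 among AJ arrays. The AJ value rests on replicate 3 of day 14 at 7.40, since replicate 4 was at 7.91 and the 2 naive AJ rats averaged 7.92. Without replicate 3 of day 14 the difference over all other arrays was -0.16, with an unadjusted limma p of 0.065. Pde4d lay at -0.15 from naive at day 14, with 7.90 on that same replicate and 8.43 or more on the others, and -0.07 without it. Pde4a lay 0.13 and Pde4c 0.09 above naive. Dimmer probe sets of Pde4b and Pde4d gave 0.08 for the first and 0.03 and 0.02 for the other at day 14.

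The remaining enzymes are Pde8a, specific for cyclic AMP like Pde8b, and 5 that degrade both cyclic nucleotides, and none had an unadjusted p under 0.05 at day 14. Pde1a, Pde1b and Pde1c, which calcium and calmodulin activate, lay at 0.02, 0.0025 and 0.06 at day 14. Pde2a, activated by cyclic GMP, lay at -0.07 with naive levels of 9.74 to 10.31. Pde10a, best known from the striatum, lay at -0.10, with naive levels of 8.95 to 9.76 and day 14 levels of 8.92 to 9.63. Pde8a lay at -0.05. Their intervals at day 14 reached from -0.39 to 0.20, and both limits belong to Pde10a. For Pde10a changes between these limits were thus not excluded. The intervals of Pde1a, Pde1b, Pde1c, Pde2a and Pde8a lay within the same limits.

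**Figure D3:**
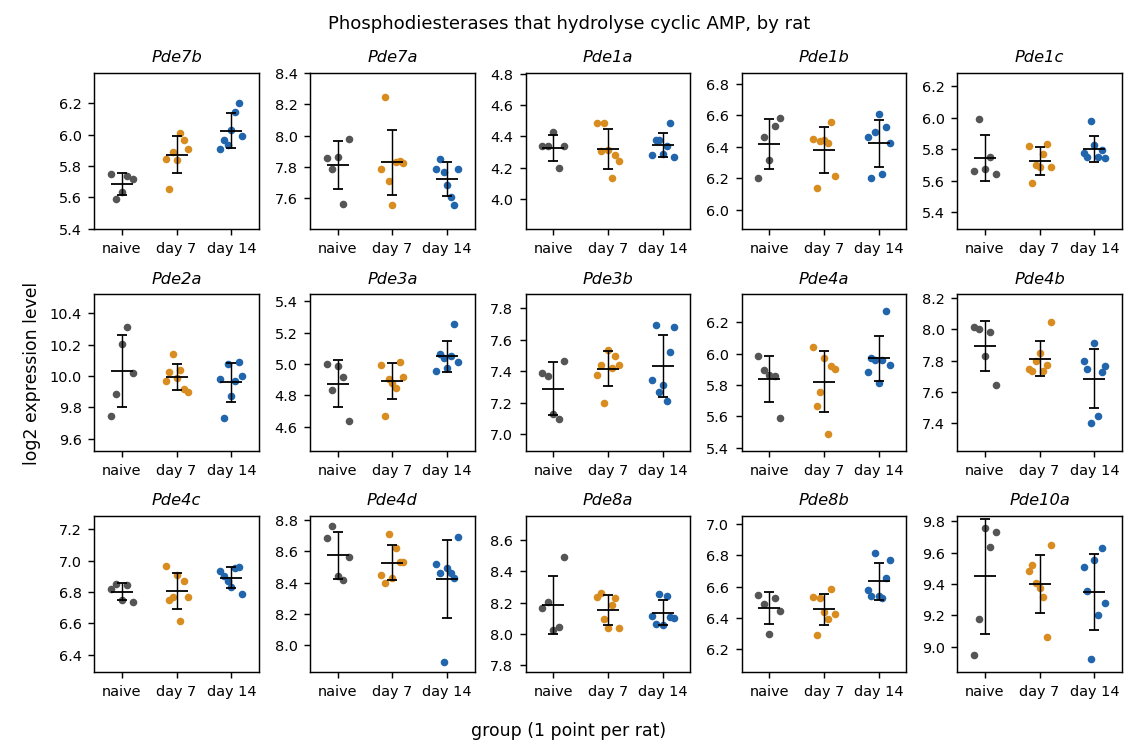
Log2 level (y axis, a separate range in each panel) in each rat for the 15 phosphodiesterases that degrade cyclic AMP, with 1 point per rat, a bar at the group mean and whiskers of 1 SD. In the Pde7b panel the day 14 points lie above all naive points, while in the Pde7a panel the groups overlap.

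Of 6 members of the family that act on cyclic GMP, 2 had an unadjusted p under 0.05 at day 14, as did 19.4% of the brightest probe sets of all genes. Pde6b, a catalytic subunit of the phosphodiesterase of rod photoreceptors, was at 4.87, 4.83, 4.63, 4.72 and 4.79 in naive rats. Its lowest, median and highest levels were 4.61, 4.89 and 5.60 at day 7 and 4.95, 5.16 and 6.48 at day 14. All 7 rats of day 14 lay above the naive range, with replicates 3 and 5 far above the others. Pde6b and Pde7b were the 2 members whose day 14 and naive groups did not overlap (3.28%, against 1.82% of all probe sets), and there were 0 such members at day 7 (0.441%) or between both days (0.187%).

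The difference of Pde6b at day 14 was 0.60 ± 0.21 (SE) and did not pass (limma adjusted p = 0.145). Its level moved with the injured neuron genes: within groups, r was 0.81 over 19 arrays that share the same libraries as the genes it was set against. The highest Pde6b levels, 6.48 and 5.66 at day 14 and 5.60 at day 7, came from the arrays with list means of 9.99, 9.53 and 9.68. With the list as a covariate the difference was 0.01. The list means of naive rats (at most 7.44) and day 14 rats (at least 7.49) did not overlap, so that fit compares groups without a shared range. Without replicate 3 of day 14 the difference was 0.41 ± 0.14 (SE). With the code letters as a block it was 1.27, and among AJ arrays 2 rats of day 14 averaged 5.88 against 4.75 in 2 naive rats. These 2 rats of day 14 were replicate 3 at 6.48 and replicate 4 at 5.28. Pde6b also moved with macrophage markers (r = 0.62) and against satellite glia (-0.69) and sensory neuron markers (-0.66). For Pde7b the within-group r with the injured neuron genes was -0.23. Its r was larger in size with macrophage (-0.56), fibroblast (-0.45) and sensory neuron markers (0.39). The part of injured neurons or of other cells in the Pde6b or Pde7b difference was not tested.

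**Figure D4:**
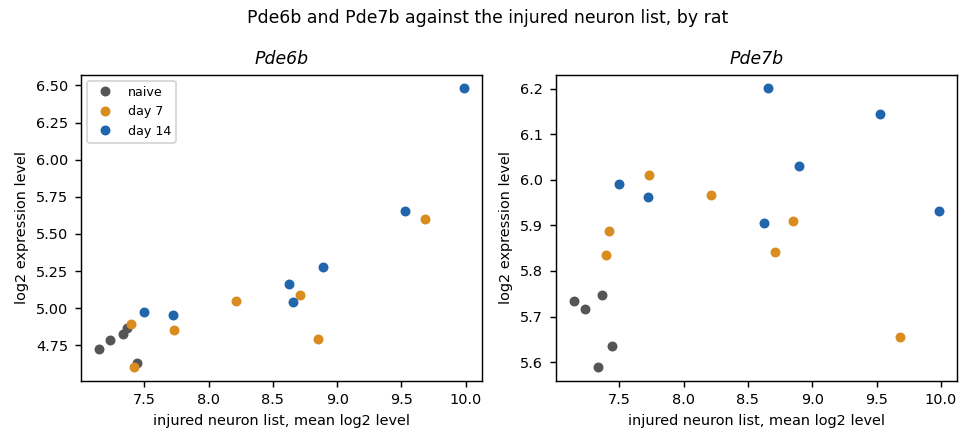
Log2 level of Pde6b (left) and Pde7b (right) on the y axis against the mean log2 level of the 12 injured neuron genes on the x axis, 1 point per rat, coloured by group. Pde6b is highest in the rats with the highest list mean, 6.48 at 9.99, while Pde7b is high at day 14 over the whole range.

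Pde5a, the cyclic GMP phosphodiesterase that sildenafil inhibits, was at 5.77, 5.40, 5.54, 5.57 and 5.47 in naive rats. The lowest, median and highest levels were 5.38, 5.54 and 5.91 at day 7 and 5.63, 5.76 and 6.18 at day 14, so that 3 of 7 rats of day 14 lay above the naive range. Its day 14 difference was 0.28 ± 0.10 (SE, limma adjusted p = 0.151), and 0.15 among AJ arrays, with 2 rats in each group. Pde9a, an enzyme with high affinity for cyclic GMP, lay at -0.14 from naive and -0.16 from day 7 at day 14 (unadjusted limma p of 0.061 and 0.020). The rod subunit Pde6a lay at -0.05, and the inhibitory subunits Pde6g and Pde6h at 0.12 and 0.10.

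The symbol Pde also covers 3 proteins that are not cyclic nucleotide phosphodiesterases. Pde12, an enzyme that degrades oligoadenylates, was at 4.5, 4.33, 4.45, 4.47 and 4.66 in naive rats. It had a lowest, median and highest level of 4.27, 4.46 and 4.59 at day 7 and of 4.05, 4.27 and 4.40 at day 14. In 6 of 7 rats of day 14 it lay below every naive rat, and the difference was -0.22 ± 0.07 (SE, limma adjusted p = 0.112), with the same -0.22 among AJ arrays. The probe set is in the dimmest of the 4 bins by signal, and the deposited values carry no detection call. Pde4dip (myomegalin), which tethers Pde4 enzymes to the Golgi apparatus and centrosome, lay at -0.01, and Pde6d, a carrier of prenylated proteins, at 0.11.

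Of the 8 adenylyl cyclases 0 passed the test in any comparison, and 0 had an unadjusted p under 0.05. At day 7, 5 lay above and 3 below naive, and at day 14 it was 3 above and 5 below, between -0.23 and 0.10. Adcy8, stimulated by calcium and calmodulin, lay at -0.23 ± 0.12 (SE) at day 14, with 3 of 7 rats below the naive range. Adcy6, which calcium inhibits, averaged 9.88 ± 0.44 (SD, n = 5) in naive rats and 9.61 ± 0.23 (SD, n = 7) at day 7. Its day 7 difference was -0.27 ± 0.16 (SE), and without the 3 arrays high in muscle genes it was -0.47 ± 0.15 (SE, limma adjusted p = 0.255). Within groups the level of Adcy6 moved with 9 myelinating Schwann cell markers (r = 0.73 over 19 arrays that supplied both), whose mean ranged from 10.54 to 10.97 in naive rats, from 10.12 to 10.91 at day 7 and from 10.52 to 11.05 at day 14. Of the marker lists this r was the highest, and fibroblast markers came next at 0.69. The part of such cells in the Adcy6 difference was not tested.

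Adcy2, which G protein beta and gamma subunits stimulate, lay at 0.04 at day 7 and 0.10 at day 14. Adcy3, the cyclase of olfactory signalling, lay at 0.01 and -0.07, and Adcy4 at -0.07 and -0.11. The bicarbonate-sensitive soluble cyclase Adcy10 lay at 0.12 and 0.03, and Adcy9 at 0.08 and 0.01. For Adcy5, also inhibited by calcium, the brightest probe set lay at -0.05 at day 14, while a dimmer one with a mean of 5.0 lay at 0.26 from naive and 0.29 from day 7 (limma adjusted p of 0.117 and 0.283). The 2 probe sets of Adcy5 thus gave opposite signs, and the direction for this gene is unsettled.

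The 6 subunits of protein kinase A had the narrowest range of differences of the 8 roles at day 14. At day 14 they lay between -0.06 and 0.05, at day 7 between -0.05 and 0.09, and 0 had an unadjusted p under 0.05 in any comparison. Prkar1a, a regulatory subunit of type I, was at 13.14 (median) in naive rats, at 13.11 at day 7 and at 13.15 at day 14, and all 19 arrays lay between 13.07 and 13.23. Prkacb, a catalytic subunit, had medians of 12.70, 12.64 and 12.64 and an overall range of 12.57 to 12.74. The 95% interval of the day 14 difference was -0.07 to 0.10 for Prkar1a and -0.15 to 0.02 for Prkacb, so a change of 0.2 log2 units in these signals lay outside both.

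For the regulatory subunit Prkar1b the interval was -0.13 to 0.14, and for Prkar2a it was -0.09 to 0.19. For Prkar2b it was -0.19 to 0.12, and for the catalytic subunit Prkaca -0.21 to 0.25. Prkar2b at day 14 lay at -0.12 ± 0.07 (SE) from day 7, the subunits' largest difference in that comparison (limma adjusted p = 0.503).

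Of the 15 anchoring proteins 0 passed. At day 14, 7 lay above and 8 below naive, between -0.20 and 0.13, with a median of -0.02. The nuclear anchoring protein Akap8 and its relative Akap8l had the smallest p below naive at day 7. Akap8l was at 8.63, 8.92, 8.66, 9.28 and 8.85 in naive rats, and had a lowest, median and highest level of 8.43, 8.60 and 8.66 at day 7 and of 8.52, 8.60 and 8.98 at day 14. In 5 of 7 rats of day 7 it lay below the naive range, with a difference of -0.28 ± 0.10 (SE, limma adjusted p = 0.455). At day 14 the difference was -0.19 ± 0.10 (SE), and its 2 other probe sets lay at -0.40 and -0.24. By code letters, Akap8l lay at -0.08 at day 7 among AJ arrays and at -0.37 among AK arrays.

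Akap8 was at 10.46, 10.50, 10.55, 10.87 and 10.81 in naive rats, with medians of 10.46 at day 7 and 10.48 at day 14. Its differences were -0.19 ± 0.08 (SE) at day 7 and -0.20 ± 0.08 (SE) at day 14, with limma adjusted p-values of 0.538 and 0.198. The code letters bear on these values. Among AJ arrays the difference of Akap8 from naive was -0.05 at day 7 and 0.04 at day 14, and among AK arrays it was -0.31 at day 7. Within groups Akap8 also moved with 7 fibroblast markers (r = 0.73 over 19 arrays that supplied both), whose mean ranged from 10.95 to 11.29 in naive rats, from 10.71 to 11.19 at day 7 and from 10.93 to 11.50 at day 14. Of the marker lists this r was the highest, and endothelial markers came next at 0.67. The part of such cells in the Akap8 difference was not tested.

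Akap12 (gravin), a scaffold for the kinase and for beta-adrenergic receptors, lay at -0.12 ± 0.06 (SE) at day 7 and -0.11 ± 0.06 (SE) at day 14, where 5 and 4 of 7 rats lay below the naive range. A dimmer probe set of Akap12 lay at 0.12 and 0.02. Akap11, a scaffold that also binds phosphatases, lay at 0.06 and 0.12, and its other probe set at 0.11 and 0.22. Akap9, at the centrosome and Golgi apparatus, lay at -0.14 at day 7 and -0.02 at day 14, while its other probe set lay at 0.29 and 0.28. The anchoring protein of synapses and ion channels, Akap5, lay at 0.03 and 0.02.

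Akap17a, one of the genes with the element shown above, lay at -0.02 at day 7 and at -0.14 ± 0.07 (SE) at day 14, where 3 of 7 rats lay below the naive range. Akap1, on the outer mitochondrial membrane, lay at -0.07 at day 14 by its brightest probe set and at 0.18 and 0.10 by dimmer ones. Akap6, known from the nuclear envelope of muscle, lay at 0.10 at day 7 and 0.02 at day 14. Akap13 lay at 0.03 and 0.13, the membrane-bound Akap7 at -0.03 and -0.09, and Akap10 at 0.0045 and -0.03, with -0.24 at day 14 by its dimmer probe set. Akap3, Akap4 and Akap14, known from sperm and cilia, had naive means of 4.89, 5.05 and 5.23 and day 14 differences of 0.07, 0.10 and 0.10.

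Of the CREB and CREM factors, Creb5, a CRE-binding protein related to ATF2, was at 7.85, 7.79, 7.84, 8.10 and 8.01 in naive rats. Its lowest, median and highest levels were 7.85, 8.23 and 8.59 at day 7 and 7.97, 8.31 and 8.58 at day 14. In 5 of 7 rats of day 7 and 6 of 7 rats of day 14 it lay above the naive range. The differences were 0.29 ± 0.12 (SE) at day 7 and 0.37 ± 0.12 (SE) at day 14, and neither passed (limma adjusted p of 0.522 and 0.137). The difference rests on the brightest of 5 probe sets. The 4 dimmer ones lay at 0.09, -0.06, -0.03 and 0.10 at day 14, and the mean over all 5 at 0.09. Among AJ arrays Creb5 lay 0.36 above naive at day 7 and 0.43 at day 14.

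Creb1, the namesake factor of the pathway, varied most between rats of 1 group. It was at 8.35, 10.06, 10.20, 9.23 and 10.28 in naive rats, with a lowest, median and highest level of 9.46, 10.06 and 10.35 at day 7 and of 9.23, 9.48 and 10.34 at day 14. The naive SD was 0.83, and the 95% interval of the day 14 difference of 0.06 ran from -0.53 to 0.65. The lowest value came from naive replicate 1, an array high in muscle genes. Its 3 other probe sets had means of 4.11, 4.70 and 4.75 and day 14 differences between -0.01 and 0.08.

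Crem was at 8.62, 8.66, 8.64, 8.07 and 8.59 in naive rats, with medians of 8.60 at day 7 and 8.44 at day 14. Its differences were 0.13 ± 0.12 (SE) and 0.02 ± 0.12 (SE), and day 14 lay -0.11 ± 0.11 (SE) from day 7. Of the 6 probe sets of Crem, 3 lay below day 7 and 3 above at day 14. Among the dimmer ones, 2 lay at -0.19 and -0.12 and 1 at 0.19 with an unadjusted limma p under 0.05, and 0 passed after adjustment. The gene has several starts and products, and which of them each probe set reads was not determined here.

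The members of the CREB3 family are held in the membrane of the endoplasmic reticulum until cleaved. Creb3l3, best known from liver, was at 6.39, 6.35, 6.52, 6.43 and 6.23 in naive rats. It had a lowest, median and highest level of 6.45, 6.51 and 6.56 at day 7 and of 6.39, 6.65 and 6.85 at day 14, and 5 of 7 rats of day 14 lay above the naive range. The difference of 0.25 ± 0.07 (SE) had a limma adjusted p of 0.0977, next to Pde7b among the members. With the code letters as a block it was 0.10, and among AJ arrays 0.06.

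Creb3 (Luman), which is known from axons of injured sensory neurons, was at 11.14, 11.13, 11.08, 10.98 and 11.40 in naive rats. It lay at 0.16 ± 0.08 (SE) at day 7 and at 0.15 ± 0.08 (SE) at day 14, with limma adjusted p-values of 0.559 and 0.277, and 1 and 2 of 7 rats lay above the naive range. Creb3l1, known from bone and astrocytes, lay at -0.11 and -0.08, and Creb3l2, known from cartilage, at -0.02 and 0.05. Creb3l4 lay at 0.05 and 0.09.

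**Figure D5:**
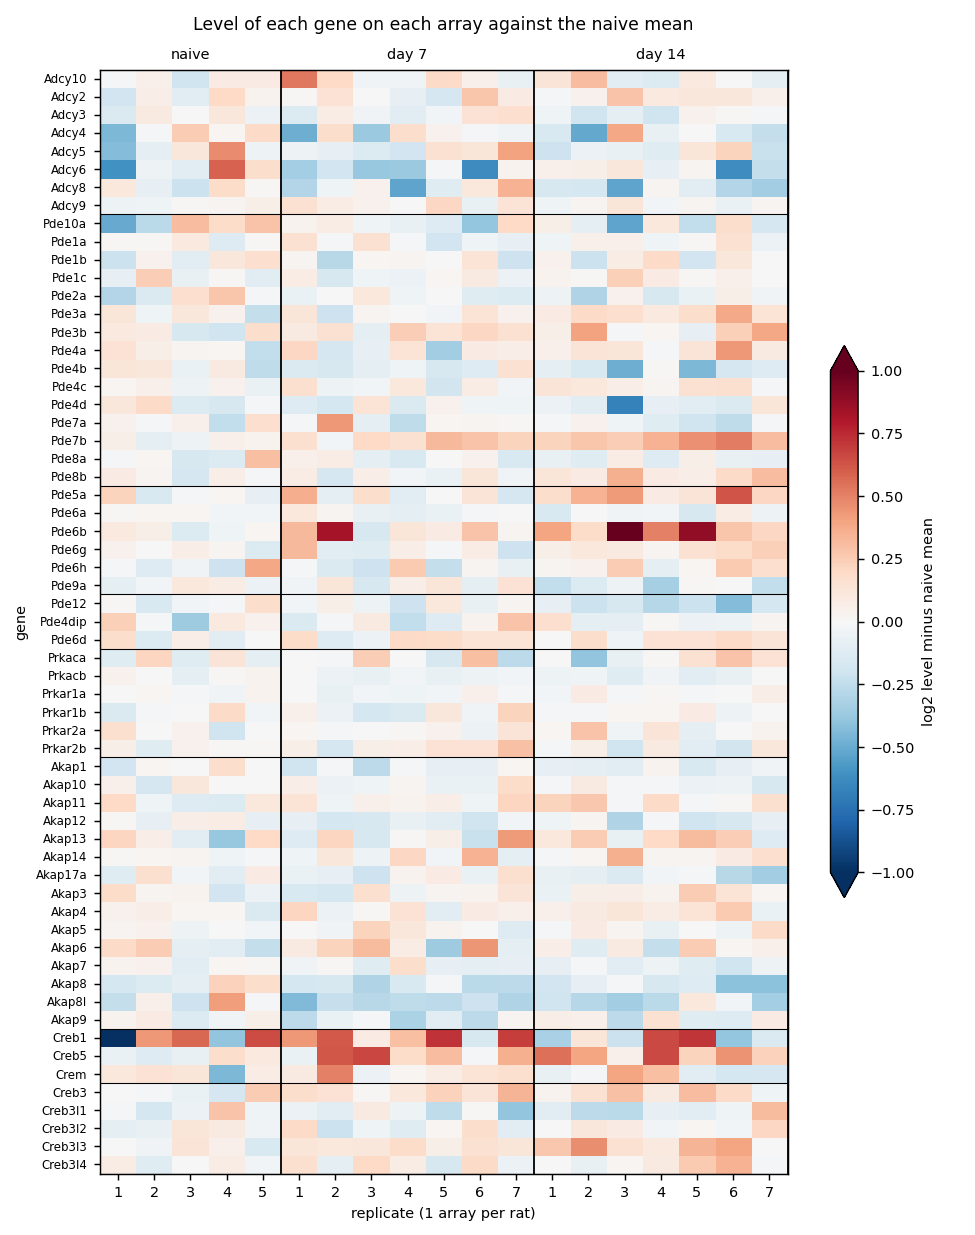
Log2 level minus the naive mean for each of the 61 genes (y axis, grouped by role) on each of the 19 arrays (x axis), with red above and blue below the naive mean and colours saturated beyond 1. Pde7b is red on every day 14 array, Pde6b is strongest on replicates 3 and 5 of day 14, and Creb1 varies on arrays of all groups.

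The check by the 41 other probe sets added no call, since 0 of them passed in any comparison. At an unadjusted p under 0.05 there were 0 at day 7, 7 at day 14 and 6 between both days. Their difference had the sign of the brightest probe set in 19 of 41 at day 7, in 20 of 41 at day 14 and in 22 of 41 between both days. Pde4dip was, with Adcy5, Akap1 and Crem, one of the genes with an opposite sign at an unadjusted p under 0.05, at 0.20 for the dimmer probe set.

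The genes around the pathway were taken from lists of ligands and receptors, G proteins, further effectors and CREB target genes. These lists were chosen with earlier results of these data known, so their shares beside the background are descriptions. Of 39 measured ligands and receptors coupled to cyclic AMP, 1 passed at day 14 (lower) and 0 at day 7. At an unadjusted p under 0.05 there were 3 at day 7 (7.69%) and 9 at day 14 (23.1%), where the brightest probe sets of all genes had 9.95% and 19.4%. At day 14, 27 lay above and 12 below naive, with a median of 0.06 where the brightest probe sets of all genes had 0.0025. All probe sets in each of the 2 dimmer bins by signal also had a median of 0.06, and the list was not matched by signal. Sstr1, a somatostatin receptor that inhibits adenylyl cyclase, fell by 0.39 ± 0.07 (SE) log2 units (limma adjusted p = 0.0227) from 6.87 ± 0.10 (SD, n = 5) to 6.48 ± 0.10 (SD, n = 7). Its 2 dimmer probe sets lay at 0.18 and 0.13, and the mean of all 3 at -0.03, so the fall rests on 1 probe set. Its adjusted p stayed under 0.05 in 25 of 34 alternative analyses.

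Calcb, a calcitonin gene-related peptide that raises cyclic AMP in its target cells, lay 0.31 ± 0.07 (SE) above naive at day 14 (limma adjusted p = 0.0598), and Calcrl, the core of its receptor, 0.23 ± 0.07 (SE) above (limma adjusted p = 0.0977). Vip, a peptide that acts through Gs-coupled receptors and is also one of the 12 injured neuron genes, went from 5.22 ± 0.28 (SD, n = 5) in naive rats to 8.11 ± 2.00 (SD, n = 7) at day 14, and did not pass (limma adjusted p = 0.108).

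Of 7 measured G protein genes 0 passed, and 1 (14.3%, against 19.4% of the brightest probe sets of all genes) had an unadjusted p under 0.05 at day 14. This was Gnai1, an inhibitory alpha subunit, at -0.25 ± 0.09 (SE, limma adjusted p = 0.144). From day 7 it lay at -0.28 (limma adjusted p = 0.289). Of 30 further effectors and inhibitors 0 passed. At an unadjusted p under 0.05 there were 6 at day 7 (20.0%, against 9.95% of the brightest probe sets of all genes) and 7 at day 14 (23.3%, against 19.4%). All 3 CRTC genes, coactivators of CREB, were among the 5 lower ones at day 7, with Crtc1 at -0.36 ± 0.12 (SE), Crtc3 at -0.21 ± 0.09 (SE) and Crtc2 at -0.20 ± 0.09 (SE), and limma adjusted p-values of 0.451, 0.519 and 0.545. At day 14 they lay at -0.27, -0.11 and -0.27. A dimmer probe set of Crtc1 lay at 0.12 at day 7 and one of Crtc3 at 0.02. At day 14 the same probe sets lay at 0.20 (unadjusted limma p of 0.0089) and 0.11. The direction for Crtc1 and Crtc3 thus depends on the probe set.

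Of 25 measured CREB target genes 1 passed at day 14 and 0 at day 7. At an unadjusted p under 0.05 there were 6 at day 7 (24.0%, against 9.95% of the brightest probe sets of all genes) and 8 at day 14 (32.0%, against 19.4%), of which 4 lay above and 4 below naive. As the list was chosen with earlier results known, these shares are no test of CREB targets as a set. Bdnf, the brain-derived neurotrophic factor, rose from 7.94 ± 0.30 (SD, n = 5) to 8.77 ± 0.29 (SD, n = 7) at day 14, by 0.83 ± 0.16 (SE) log2 units (limma adjusted p = 0.0380), and its adjusted p stayed under 0.05 in 17 of 34 alternative analyses. The orphan nuclear receptors Nr4a1 and Nr4a2 are immediate early genes. Nr4a1 lay at -0.47 ± 0.13 (SE) at day 7 and -0.31 ± 0.13 (SE) at day 14, with limma adjusted p-values of 0.413 and 0.200, and Nr4a2 at -0.22 ± 0.07 (SE) at day 14 (limma adjusted p = 0.119). In all, 14 of the 25 lay above naive and 11 below at day 14, with a median of 0.05.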

How the data were processed

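The authors deposited log2 expression levels per probe set of 19 arrays. Per the submitters' processing notes they used RMA, which quantile-normalizes arrays and so hides a shift of most transcripts one way, and limma, with versions not given in the sources used here. Linear amplification in 2 rounds of the RNA from every ganglion is given per the labels' protocols, and 1 naive array was removed by the submitters and is not analysed here. Of the probe sets, 57 controls were left out. Gene names come from the platform annotation, and all 102 member probe sets matched RefSeq genes of GRCr8 by identifier with 0 symbols changed. A further 3 probe sets with several gene symbols were left out. The test was limma 3.58.1 under R 4.3.3 (lmFit and eBayes, all 3 groups in 1 fit, 16 residual and 4.20 prior degrees of freedom), with Benjamini-Hochberg adjustment over 31042 probe sets in each comparison and a threshold of 0.05. The rats are separate animals. The number of arrays limits the precision: the median SE of a day 14 difference was 0.080. Summaries used Python 3.11.15 with pandas 2.3.3, and plots matplotlib 3.10.9. The fit was checked on simulated data.

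Members and lists were chosen with earlier results of these data known. Named with values are members past the threshold, the 4 smallest p in each direction and comparison, all phosphodiesterases that degrade cyclic AMP, the 2 brightest members of each family, members whose probe sets oppose each other at an unadjusted p under 0.05, and up to 3 genes with the smallest p per pathway list and comparison. The remaining members are given briefly, to account for all. Alternatives were leaving out each array, other normalizations, array weights, a dim-signal filter, other moderation, only the groups compared, 1 value per gene, blocks, covariates and another threshold.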

Additional observations from a re-analysis of the deposited data

Results flagged for a closer look

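In 219 groups of values, of 61 members and 12 sample measures in 3 groups of rats each, 17 held 1 array set apart from its nearest neighbour by Dixon's criterion. Chance gives about 1 in 20, or 10.95. Of the 183 groups of member values 13 were singled out.

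In naive rats these were Akap4 in replicate 5 (4.91, next value 5.07), Akap7 in replicate 3 (10.33, next 10.45), Crem in replicate 4 (8.07, next 8.59) and Prkar2b in replicate 2 (11.48, next 11.61), all low. At day 7 Akap8l was low in replicate 1 (8.43, next 8.57). High at day 7 were Crem (9.02, next 8.67) and Pde7a (8.25, next 7.84), both in replicate 2, and Pde4b in replicate 7 (8.05, next 7.85).

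At day 14 Creb3l1 was high in replicate 7 (9.12, next 8.76), Pde3a (5.26, next 5.07) and Pde4a (6.27, next 5.97) were high in replicate 6, and Pde1c was high in replicate 3 (5.98, next 5.82). Pde4d was low in replicate 3 (7.90, next 8.43). That array also had the lowest mean of the sensory neuron markers (12.20, next 12.36).

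The muscle marker mean was high in naive replicate 1 (9.60, next 6.63), day 7 replicate 7 (9.27, next 7.19) and day 14 replicate 2 (8.03, next 6.45).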

How the results depend on the processing

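The member count of 1 at day 14 became 0 with the filter on dim probe sets (which leaves Pde7b untested), quantile normalization repeated, only the 2 groups compared, a replicate block, the code letters as a block, the 3' minus 5' control signal as a covariate, the 3 muscle-rich arrays left out, the injured neuron list as a covariate, or, chosen after seeing the data, the AI arrays left out. It became 2 at an adjusted p of 0.1 (Creb3l3 joins) and lay between 0 and 1 when each array was left out. The counts of 0 in the other comparisons stayed 0. Pde7b at day 14 kept its direction but passed no longer at 0.30 (repeated quantile normalization), 0.34 (only the 2 groups, adjusted p = 0.0632), 0.31 (replicate block, adjusted p = 0.0955), 0.27 (code letters), 0.32 (3' minus 5' signal), 0.36 (muscle-rich arrays out), 0.38 (injured neuron list) and 0.30 (AI arrays out), and ranged from 0.31 to 0.36 when each array was left out. The cause was not tested. Deviations of same-numbered rats in different groups correlated between -0.26 and 0.33, with 3 of 17 pairs over 0.1. Those of rats with other numbers correlated between -0.35 and 0.38, with 31 of 102 pairs over 0.1. No closer likeness of same-numbered rats was thus seen, which by itself does not settle whether the numbers pair them. Among the differences named for a small p, Akap12 (0.0026) and Akap9 (0.075) at day 7 were reversed with the mean of all probe sets. Vip was reversed with the injured neuron list, which holds it, as a covariate (-0.051 at day 7, -0.069 at day 14), and Cap2 at day 14 with the code letters (-0.059). Over all 61 members more signs changed. With the injured neuron list as a covariate 16 changed at day 7 and 10 at day 14, and with the 3' minus 5' control signal 13 changed at each. The members with an unadjusted p under 0.05 kept their sign in every alternative run in which they were tested, 0 reversing. They were picked by their p in these same arrays. The deposited values carry no detection call, so it is not known which of the 22 of 61 members below the array's median signal lie above background.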
